A study of Mus musculus with 12 samples.

Results

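The interferon response genes described here are 33 mouse genes that cells switch on, or that carry the signal, when they sense interferon. They are the 33 gene names on a given list, all of which were found among the 37055 gene names on the array, and the brightest probe of each was used (58 of 56568 analysed probes carry a member's name). Whole-tissue RNA was measured on 12 one-colour arrays, in basal forebrain and cerebral cortex of 6 mice. DKO mice were PS2-/-, with both PS2 (Psen2) alleles deleted, and carried Cre recombinase driven by the cholinergic-neuron gene Chat together with floxed alleles that Cre can recombine. Con mice were PS2+/- and lacked Cre, so both genotypes carried the floxed alleles and the controls kept 1 intact PS2 allele. Each genotype had 3 mice, labelled male, aged 2 months and killed by cervical dislocation, with 1 array per region from each. PS2 is a catalytic subunit of gamma-secretase. Cholinergic neurons are a minority of the cells in either tissue, and in whole tissue a change in the number of cells of a type and a change in RNA per cell cannot be told apart.

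Type I interferons bind a receptor whose kinases, Jak1 and Tyk2, phosphorylate transcription factors, Stat2 among them. Stat2 and Irf9 are part of a complex that binds the interferon-stimulated response element, a repeat of GAAA blocks, while interferon gamma acts mainly at the GAS element. The genes that follow include RNA sensors (Ifih1, Ddx58), effectors that block viral RNA, membranes and nucleotides (the Ifit, Oas, Mx and Gbp families, Rsad2, Bst2, Ifitm3) and brakes on the response (Usp18). In the brain microglia, endothelium, astrocytes and neurons can all run the programme, and a low tonic level exists without infection.

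The promoters of the members show which of them carry these elements near the start, and RefSeq windows (GRCm38.p6, 250 bases before to 50 after each gene's start) were available for 25 of 33 members. No window was used for Usp18, Zbp1, Oas2, Mx1, Mx2, Ifi27, Rtp4 and Parp14. The letters GAAANNGAAA, or TTTCNNTTTC on the other strand, were found in 14 of these 25 members (56.0%), against 3.99% of all 27025 genes with a window. The GAS letters TTCNNNGAA, which read the same on both strands, were found in 7 of 25 members (28.0%) against 9.55% of all genes. Bst2, Igtp, Ifitm3 and Oas1a held both motifs, which were searched independently and may overlap. A match is a run of letters, not a shown binding site. The GAAA repeat was not found in the windows of Oasl2, Lgals3bp, Ifi47, Cmpk2, Irf7, Irf9, Irf1, Ifit2, Ifi35, Ifi44 and Xaf1. The 7 stretches below were picked from members that have a GAAA-repeat match before the start. Capitals mark the matches, which overlap one another in Isg15, Oas1a and Gbp3. Each is written 5′ to 3′ on the gene's strand.
Rsad2 (chr12:26456548-26456587, minus strand, 135 to 96 bases before the start): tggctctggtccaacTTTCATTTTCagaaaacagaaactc
Isg15 (chr4:156200860-156200911, minus strand, 93 to 42 bases before the start): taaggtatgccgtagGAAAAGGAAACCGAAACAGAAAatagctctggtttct
Ifit1 (chr19:34640770-34640828, plus strand, 119 to 61 bases before the start): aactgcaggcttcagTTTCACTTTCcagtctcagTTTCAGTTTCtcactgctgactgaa
Ifit3 (chr19:34583358-34583431, plus strand, 171 to 98 bases before the start): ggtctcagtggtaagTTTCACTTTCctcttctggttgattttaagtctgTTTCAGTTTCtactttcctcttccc
Oas1a (chr5:120907526-120907560, minus strand, 35 to 1 bases before the start): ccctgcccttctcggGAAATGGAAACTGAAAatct
Gbp3 (chr3:142559984-142560029, plus strand, 60 to 15 bases before the start): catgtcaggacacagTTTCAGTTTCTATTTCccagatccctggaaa
Igtp (chr11:58199507-58199546, plus strand, 49 to 10 bases before the start): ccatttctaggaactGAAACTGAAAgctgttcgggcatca

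The next 4 sequences are the array probes behind the results on Rsad2, Gbp3 and Oas1a, with positions in the mm9 build given by the files. The second Rsad2 probe spans 3302 genomic bases with its 60 letters, so it joins separate stretches of the gene, and it reads the transcript at another place than the first.
Rsad2, first probe (chr12:27127859-27127918, minus strand): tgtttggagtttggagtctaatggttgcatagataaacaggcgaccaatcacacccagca
Rsad2, second probe (chr12:27135585-27138886, minus strand): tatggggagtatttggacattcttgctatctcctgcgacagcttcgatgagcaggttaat
Gbp3 (chr3:142236072-142236131, plus strand): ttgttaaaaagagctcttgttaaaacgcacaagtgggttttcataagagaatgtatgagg
Oas1a (chr5:121346735-121346794, minus strand): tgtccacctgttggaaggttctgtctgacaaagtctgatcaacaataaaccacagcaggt

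Levels are log2 intensities minus the 75th percentile of the array, so 0 is that percentile, and levels of different probes are not compared. On the 12 arrays 68.9% to 75% of probes were well above background, and 32 of the 33 members were so on all 12 arrays (Mx1 on 9). Psen2 stood at -1.86 to -1.25 on the 6 DKO arrays, against 0.25 to 0.50 on the 6 Con arrays. DKO mice 1 and 3 had Xist at -2.32 to -1.53, against -8.49 and -8.28 in DKO mouse 2, while Con mice ranged from -9.14 to -6.48. In these 2 mice no signal above background was seen for Y-linked Ddx3y, Eif2s3y and Uty, which goes against the male label. DKO mouse 2 and all Con mice had such signal, so every genotype comparison is partly confounded with this apparent difference in sex. Slide 1 held every basal forebrain array together with the cortex of DKO mice 1 and 2, and slide 2 the cortex of DKO mouse 3 and of the 3 Con mice. The summed linear level of 5 cholinergic markers was 14.6 to 17.8 in DKO basal forebrain against 0.653 to 1.3 in DKO cortex, and 13.1 to 15.6 against 1.33 to 1.55 in Con. Markers of neutrophils, B cells and red cells were higher in DKO, and those of T and NK cells overlapped between the genotypes. The 6 neutrophil markers summed to 4.07 to 8.86 against 0.762 to 1.16 in Con in basal forebrain and to 5.33 to 15.1 against 0.769 to 1.48 in cortex, with all 6 well above background on every DKO array.

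The question of the genotype comparison is whether these mice differ in interferon response RNA in the region that holds the cholinergic cell bodies and in the cortex they innervate. In basal forebrain the members leaned lower in DKO mice: 23 of 33 were lower and 10 higher, with a median difference of -0.11, while 51% of all 25919 genes tested were higher and their median was 0.00. Without Con mouse 3, the highest array for many members, that member median was -0.02. In cortex 16 were higher and 16 lower of the 32 that entered, with a median of 0.00 against -0.05 over all 25635 genes. None of the members passed limma's test in either region (adjusted p under 0.05, Benjamini-Hochberg over all genes). The background is low too, at 0.0309% of genes in basal forebrain and 0.0117% in cortex. Unadjusted p was under 0.05 for 5 members in basal forebrain (15.2%, against 4.42% of all genes) and for 8 in cortex (25%, against 18.9%). The groups of 3 mice did not overlap for 8 members in basal forebrain (2 higher, 6 lower), a share set against 9.97% of all genes. In cortex they did not overlap for 12 members (7 higher, 5 lower), against 22.4% of all genes. There DKO mice 1 and 2 were on slide 1 and all Con mice on slide 2, so genotype and slide are partly confounded. For Irf1, Ifih1, Ddx58, Ifi47, Xaf1, Lgals3bp, Ifit1 and Mx2 the DKO array nearest to Con was that of mouse 3, on the Con slide. For Rsad2, Usp18, Ifit3 and Gbp3 another DKO array was nearest. With slide as a block no member passed in cortex. The largest member difference in either region was that of Rsad2.

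**Figure D1:**
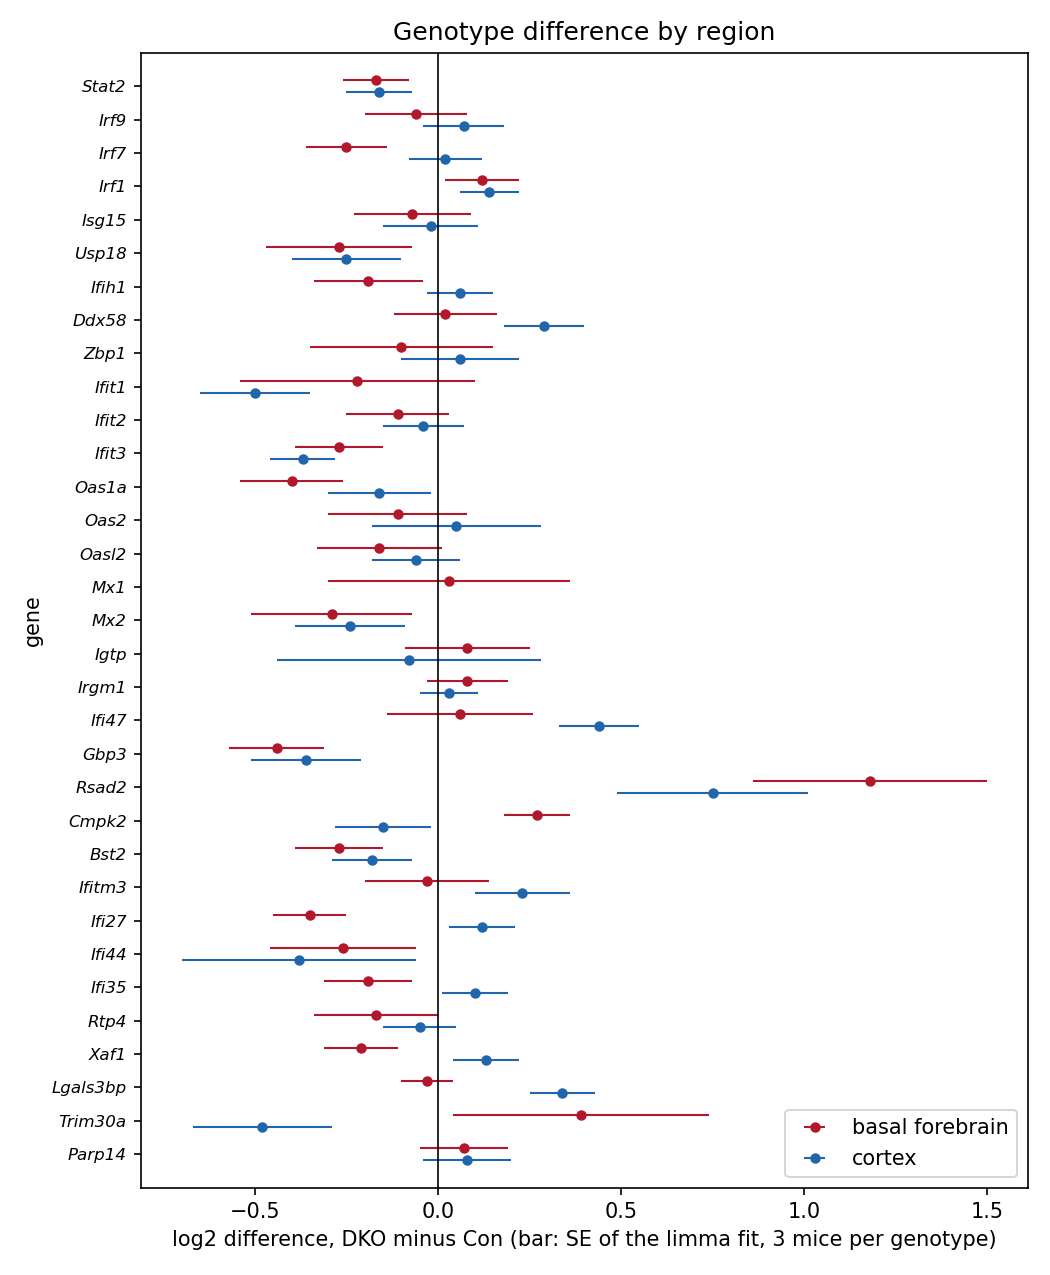
Log2 difference between DKO and Con mice (x axis) for each of the 33 genes (rows, in the order of their roles), in basal forebrain (red) and cortex (blue), with the SE of the limma fit (3 mice per genotype). Rsad2 lies at 1.18 and 0.75, while the other members lie between -0.50 and 0.44; Mx1 was tested in basal forebrain only.

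The 4 transcription factors of the pathway differed little between the genotypes. Stat2, the partner of Irf9 in the type I complex, read 0.68, 0.87 and 0.85 in DKO basal forebrain against 1.04, 0.86 and 0.99 in Con, and 0.90, 0.98 and 1.17 in DKO cortex against 1.20, 1.14 and 1.19 in Con. Its difference was -0.17 (SE 0.09) in basal forebrain and -0.16 (SE 0.09) in cortex, and the groups overlapped in both. Irf9, the DNA-binding subunit, read 0.29, 0.56 and 0.56 in DKO basal forebrain against 0.55, 0.30 and 0.75 in that of Con mice, a difference of -0.06 (SE 0.14). In cortex Irf9 read -0.03, 0.07 and -0.07 in DKO against -0.12, -0.26 and 0.12 in Con. Irf7, the factor that amplifies interferon production, read -0.24, -0.06 and -0.09 in DKO basal forebrain against 0.01, 0.04 and 0.31 in Con, so all 3 DKO mice were below all 3 Con mice. The difference of -0.25 (SE 0.11, adjusted p = 0.971 by limma) did not pass. In cortex Irf7 read -0.36, -0.29 and -0.27 in DKO against -0.21, -0.49 and -0.27 in Con. Irf1, a factor strongly induced by interferon gamma, read 0.50, 0.40 and 0.23 in DKO basal forebrain against 0.28, 0.30 and 0.18 in Con. In cortex its DKO values of 0.43, 0.32 and 0.27 all lay above the Con values of 0.18, 0.23 and 0.18, a difference of 0.14 (SE 0.08, adjusted p = 0.335 by limma).

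Isg15, a ubiquitin-like protein joined to other proteins, and Usp18, which removes it and damps the receptor, did not pass in either region. Isg15 read 0.34, 0.48 and 0.82 in DKO basal forebrain against 0.48, 0.51 and 0.85 in Con, a difference of -0.07 (SE 0.16), and -0.02 (SE 0.13) in cortex. Usp18 differed by -0.27 (SE 0.20) in basal forebrain and -0.25 (SE 0.15) in cortex. Of the sensors, Ifih1, which binds long double-stranded RNA, differed by -0.19 (SE 0.15) and 0.06 (SE 0.09) in the same order of regions. Zbp1, a sensor of Z-form nucleic acid, differed by -0.10 (SE 0.25) and 0.06 (SE 0.16). Ddx58, which encodes RIG-I, read -1.60, -1.41 and -1.67 in DKO cortex, above all 3 Con values of -1.85, -1.87 and -1.82. That difference was 0.29 (SE 0.11, adjusted p = 0.261 by limma), and in basal forebrain it was 0.02 (SE 0.14).

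In basal forebrain all 6 members of the Ifit and Oas families were lower in DKO mice, by 0.11 to 0.40 on the log2 scale, and none passed the test. Oas1a, which makes the 2-5A signal that activates RNase L, read -1.31, -1.56 and -1.34 in DKO basal forebrain against -1.02, -1.18 and -0.80 in Con. The groups did not overlap, and the difference was -0.40 (SE 0.14, unadjusted p = 0.0225, adjusted p = 0.971 by limma). In cortex Oas1a overlapped, at -2.09, -2.28 and -2.36 in DKO against -2.07, -2.27 and -1.89 in Con. Ifit3, which binds Ifit1 and is a marker of the type I response, had the smallest p of the members in cortex. It read -0.22, -0.03 and -0.07 in DKO cortex against 0.35, 0.30 and 0.16 in Con, a difference of -0.37 (SE 0.09, adjusted p = 0.261 by limma). In basal forebrain Ifit3 read 0.35, 0.26 and 0.57 in DKO against 0.85, 0.59 and 0.56 in Con, with a difference of -0.27 (SE 0.12). Ifit1, which recognises foreign RNA caps, read -3.29, -3.10 and -2.94 in DKO cortex against -2.60, -2.79 and -2.46 in Con, a difference of -0.50 (SE 0.15, adjusted p = 0.261 by limma). In basal forebrain it read -2.80, -2.65 and -1.74 in DKO against -1.99, -2.62 and -1.92 in Con, and DKO mouse 3 was the highest of the 6. Oas2, Oasl2 and Ifit2 differed by -0.16 to 0.05 over both regions.

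Among the GTPases, Gbp3 was lower in DKO mice in both regions and Ifi47 higher in cortex, and neither passed. Gbp3, a guanylate-binding protein that acts on pathogen-containing vacuoles, read -0.47, -0.06 and -0.49 in DKO basal forebrain against 0.04, 0.13 and 0.14 in Con (difference -0.44, SE 0.13). In cortex it read -0.80, -1.31 and -0.82 in DKO against -0.51, -0.71 and -0.64 in Con (difference -0.36, SE 0.15), so the groups did not overlap in either region. Ifi47, an immunity-related GTPase, read -1.43, -1.48 and -1.59 in DKO cortex against -1.87, -2.09 and -1.88 in Con, a difference of 0.44 (SE 0.11, adjusted p = 0.261 by limma). Its basal forebrain values of -1.10, -0.94 and -1.27 in DKO lay within the Con range of -1.56 to -0.80. Igtp, a related GTPase, read 1.19, -0.45 and 0.66 in DKO cortex, the widest spread of any member within a group (SD 0.84), and 0.61, 0.60 and 0.41 in Con. Irgm1 differed by 0.08 (SE 0.11) in basal forebrain and 0.03 (SE 0.08) in cortex. Mx2, a dynamin-like antiviral GTPase, differed by -0.29 (SE 0.22) and -0.24 (SE 0.15). Mx1 was dim: it read -5.93, -5.37 and -4.61 in DKO basal forebrain against -5.24, -5.40 and -5.35 in Con, a difference of 0.03 (SE 0.33).

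Of the membrane proteins and remaining effectors, Ifi27, Lgals3bp and Trim30a had an unadjusted p under 0.05 in a single region. Ifi27, a small membrane protein whose probe was the brightest of the members, read 3.44, 3.41 and 3.36 in DKO basal forebrain against 3.75, 3.56 and 3.94 in Con, a difference of -0.35 (SE 0.10, unadjusted p = 0.0113, adjusted p = 0.971 by limma). In cortex it read 3.82, 3.60 and 3.67 in DKO against 3.63, 3.68 and 3.41 in Con, a difference of 0.12 (SE 0.09). Lgals3bp, a secreted galectin-binding glycoprotein, read 1.52, 1.48 and 1.27 in DKO cortex against 1.12, 1.14 and 1.01 in Con, a difference of 0.34 (SE 0.09, adjusted p = 0.261 by limma). DKO mouse 3, the only DKO array on the slide of the Con cortex arrays, was the lowest of the 3. In basal forebrain Lgals3bp read 2.08, 1.96 and 1.96 in DKO against 1.99, 1.99 and 2.09 in Con. The second Lgals3bp probe, well above background on 11 arrays, had the opposite sign in cortex, at -0.61. Trim30a, a mouse regulator of inflammatory signalling, read -3.61, -3.57 and -3.07 in DKO cortex against -3.10, -2.83 and -2.88 in Con, a difference of -0.48 (SE 0.19), and here too DKO mouse 3 lay close to Con. Both other Trim30a probes, well above background on all 12 arrays, had the opposite sign in cortex, at 0.18 and 0.24. Over all members 12 further probes were well above background on every array. For DKO minus Con, 6 of these 12 shared the sign of their gene's brightest probe in cortex and 11 in basal forebrain. Bst2 (tetherin), which holds budding virus at the cell surface, differed by -0.27 (SE 0.12) in basal forebrain and -0.18 (SE 0.11) in cortex. Ifi44, whose probe was the dimmest of the 32 measured on all arrays, read -4.51, -4.20 and -4.23 in DKO basal forebrain against -4.28, -4.15 and -3.74 in Con. In cortex Ifi44 read -5.00, -5.26 and -4.12 in DKO against -4.44, -4.65 and -4.13 in Con, so the groups overlapped in both regions. Ifitm3, Ifi35, Rtp4, Xaf1 and Parp14 differed by -0.21 to 0.23 over both regions, and none passed.

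**Figure D2:**
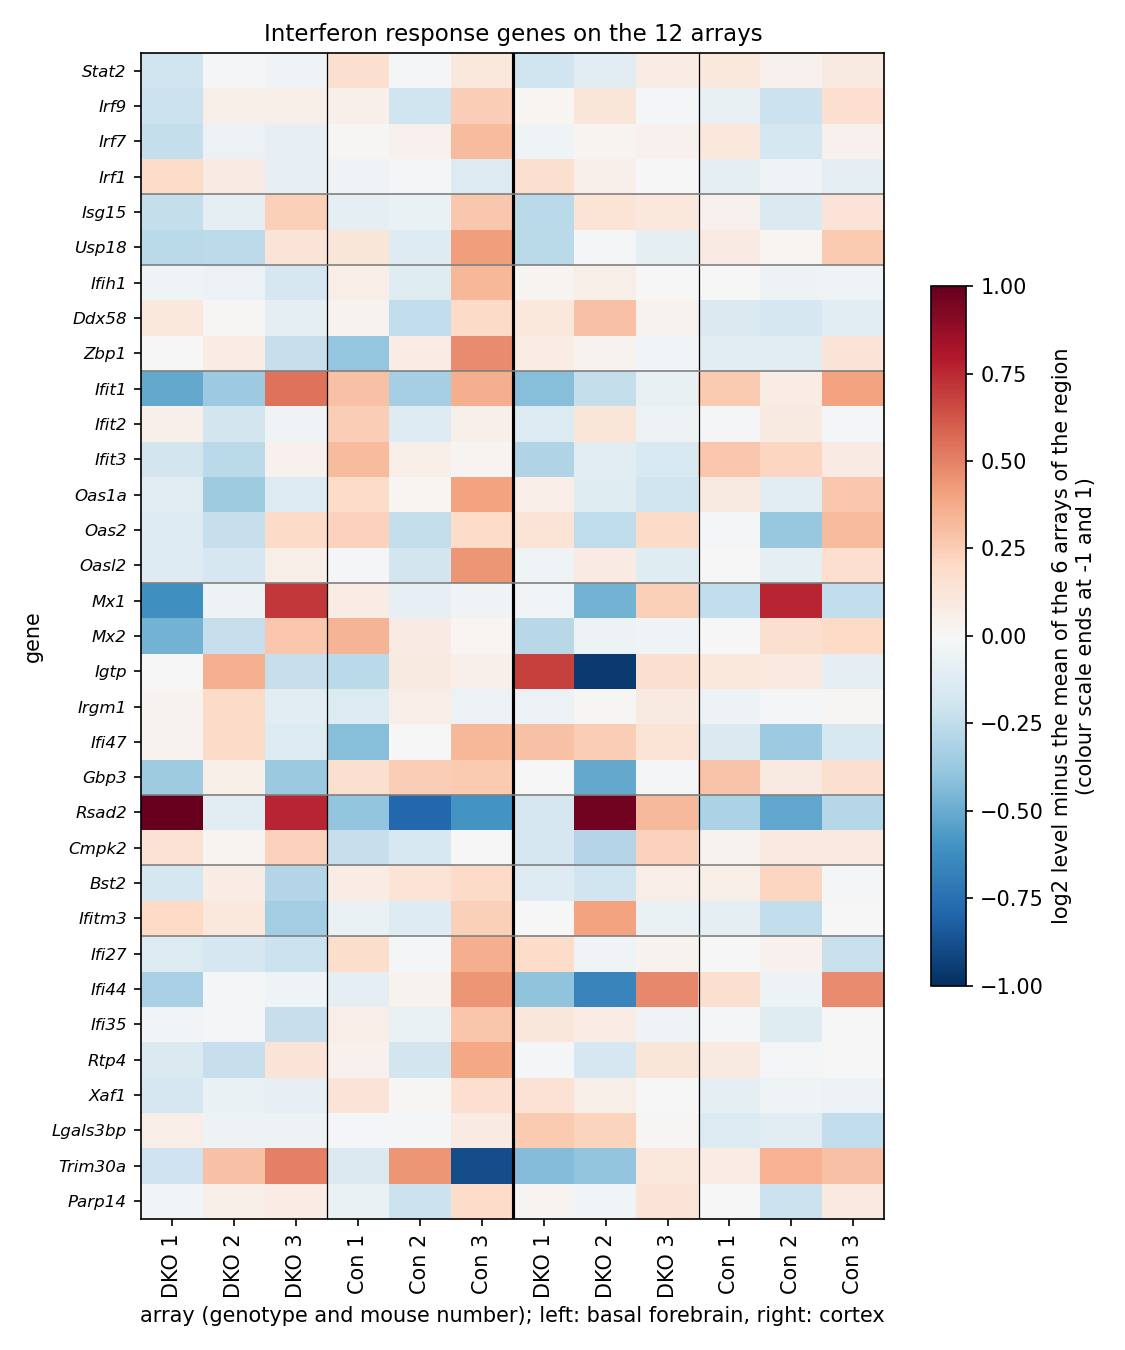
Log2 level of each of the 33 genes (rows, grouped by role) on each of the 12 arrays (columns, DKO then Con in each region), minus the mean of the 6 arrays of that region; red is above that mean and blue below. Rsad2 is red on the arrays of DKO mice 1 and 3 in basal forebrain and of DKO mice 2 and 3 in cortex, the column of Con mouse 3 in basal forebrain is mostly red, and Igtp is low on the cortex array of DKO mouse 2 (level -0.45 before the mean is subtracted).

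Rsad2 encodes viperin, an enzyme that makes a chain-terminating nucleotide from CTP, and it was the 1 member that passed a genotype test. Averaged over both regions of a mouse, it read -1.98, -2.04 and -1.92 in DKO mice against -2.82, -3.11 and -2.91 in Con mice. The difference was 0.97 (SE 0.12), a 1.95-fold higher level, with an adjusted p of 0.0234 by limma over 26773 genes, 0.157% of which passed. By region, Rsad2 read -1.40, -2.65 and -1.77 in DKO basal forebrain against -2.93, -3.32 and -3.13 in Con (difference 1.18, SE 0.32, adjusted p = 0.971 by limma). In cortex it read -2.56, -1.43 and -2.07 in DKO against -2.71, -2.91 and -2.68 in Con (difference 0.75, SE 0.26, adjusted p = 0.261 by limma). Every DKO array was above every Con array of its region. DKO mouse 1 was the highest in basal forebrain and the lowest DKO mouse in cortex, and DKO mouse 2 the reverse, so the per-mouse means were much closer together than the single regions. The second Rsad2 probe, well above background on 9 arrays, read -4.64, -5.67 and -4.77 in DKO basal forebrain against -6.17, -6.75 and -6.29 in Con. In cortex this probe read -6.36, -5.17 and -5.79 in DKO against -6.94, -7.81 and -8.53 in Con. It placed every DKO array above every Con array of its region and ranked the DKO mice in the same order as the first probe.

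The Rsad2 call depends on the settings: of 17 alternatives, 6 kept it and 11 ended it, with differences of 0.76 to 1.68 and adjusted p of 0.0163 to 0.261 by limma. Without the 2 Xist-positive mice the difference over both regions was 0.90 (adjusted p = 0.261 by limma), and in the single regions it was 0.47 in basal forebrain and 1.33 in cortex, where the remaining DKO array and the Con arrays lie on different slides. The neutrophil gene S100a9 read 2.57, 1.69 and 1.43 in DKO against -0.71, -0.94 and -1.89 in Con basal forebrain, and 2.56, 3.33 and 1.79 in DKO against -0.29, -1.60 and -1.36 in Con cortex. Alas2, which makes haem in red-cell precursors, read 2.65, 0.60 and 1.22 in DKO against -1.15, -0.85 and -1.36 in Con basal forebrain, and 1.06, 1.47 and -0.02 in DKO against -1.04, -1.35 and -1.60 in Con cortex. Cd79b, a part of the B-cell receptor, read -1.32, -0.95 and -0.96 in DKO against -3.71, -3.39 and -3.60 in Con basal forebrain, and -2.06, -1.39 and -1.14 in DKO against -4.23, -3.85 and -3.92 in Con cortex. In basal forebrain DKO mouse 1 was the highest of the DKO mice for Rsad2, S100a9 and Alas2 and the lowest for Cd79b. In cortex DKO mouse 2 was the highest for Rsad2, S100a9 and Alas2, and DKO mouse 3 for Cd79b. The remaining DKO mice were not in the same order. In cortex mouse 3 was above mouse 1 for Rsad2 and below it for S100a9 and Alas2. In basal forebrain mouse 3 was above mouse 2 for Rsad2 and Alas2 and below it for S100a9. Summed levels of 7 red-cell markers were 283 to 762 in DKO and 134 to 154 in Con basal forebrain, and 285 to 513 in DKO and 135 to 188 in Con cortex. Summed levels of 7 B-cell markers were 0.761 to 1.09 in DKO and 0.124 to 0.15 in Con basal forebrain, and 0.477 to 0.934 in DKO and 0.126 to 0.136 in Con cortex. The defining B-cell marker Ms4a1 was not well above background on any Con array. The part of blood cells in the Rsad2 difference was not tested. Microglial markers overlapped between the genotypes, at 57.5 to 69.7 in DKO and 61.5 to 66.9 in Con basal forebrain and at 45.3 to 66.8 in DKO and 63.8 to 64.9 in Con cortex (8 genes, all well above background). In cortex all 8 were lower in DKO on average (median -0.28, 3 with an unadjusted p under 0.05), and none passed limma's test. In the cortex sum DKO mouse 1 was at 56, DKO mouse 2 at 45.3 and DKO mouse 3, on the Con slide, at 66.8. This last value lay above every Con array. Endothelial markers (6 genes) were at 34.7 to 45.6 in DKO and 31.4 to 35.1 in Con basal forebrain, and did not overlap in cortex, at 34 to 41.5 in DKO and 26.4 to 30.9 in Con. Gene by gene, all 6 were higher in DKO basal forebrain, while in cortex 4 were higher and 2 lower (median 0.06). Markers of monocytes, macrophages and plasmacytoid dendritic cells (6 genes) were at 61.4 to 71.4 in DKO and 48.6 to 71.1 in Con basal forebrain, and did not overlap in cortex, at 50.4 to 55.8 in DKO and 46.9 to 47.6 in Con. Of the 5 that entered, 4 were higher and 1 lower in DKO basal forebrain, and 3 higher and 2 lower in DKO cortex. Over both regions 4 were higher and 1 lower, and 1 passed, Plac8, at 1.89 (adjusted p = 0.0133 by limma). Plac8 read -2.77, -2.69 and -2.73 in DKO basal forebrain against -4.51, -3.72 and -4.49 in Con. In cortex the DKO array nearest to Con was that of mouse 3 for the endothelial sum and for this one. The part of these cell types in the genotype differences was not tested.

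**Figure D3:**
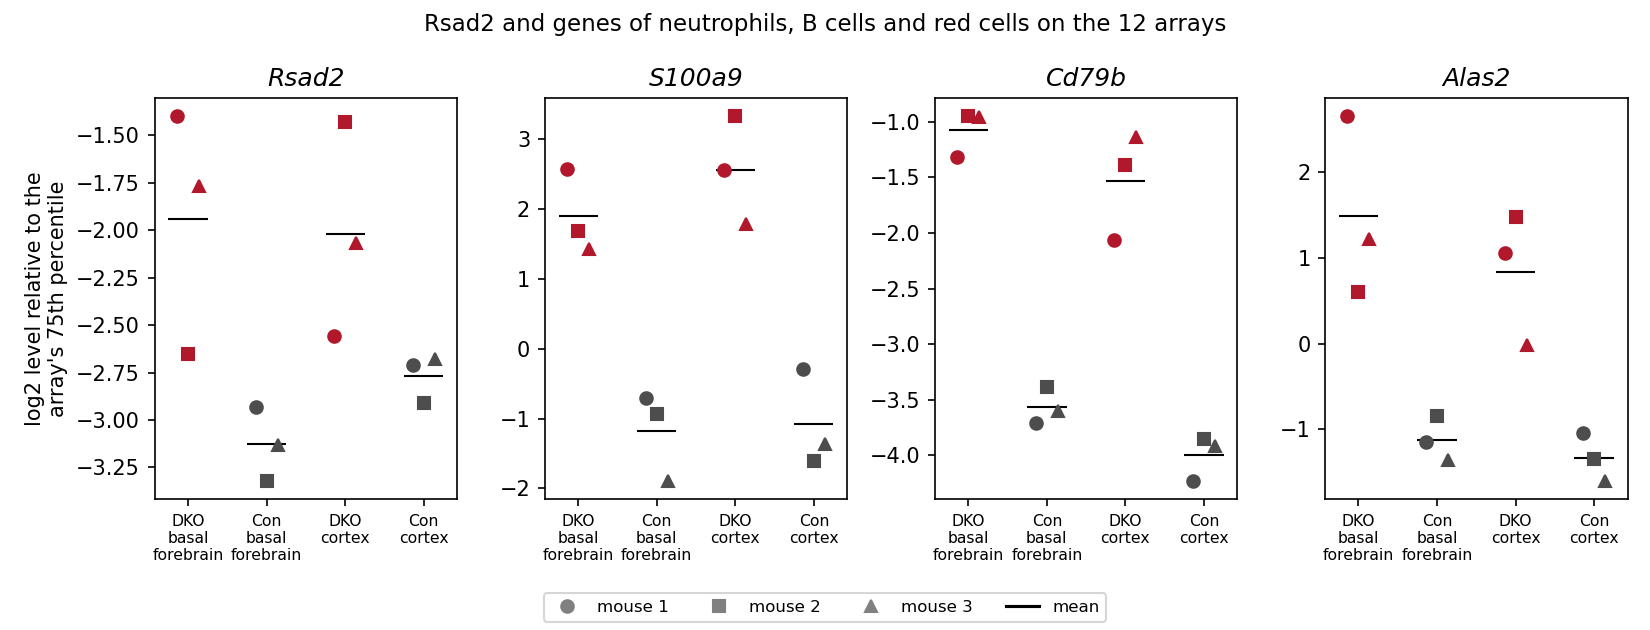
Log2 level relative to the array's 75th percentile (y axis, own scale per panel) of Rsad2, S100a9 (neutrophils), Cd79b (B cells) and Alas2 (red cells) in DKO (red) and Con (grey) basal forebrain and cortex; symbols are mice 1, 2 and 3 of each genotype and bars the group means. Every DKO array lies above every Con array of its region in all 4 panels.

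Cmpk2, a mitochondrial nucleotide kinase whose gene neighbours Rsad2 and is usually induced with it, did not follow it in cortex. It read 1.17, 1.05 and 1.25 in DKO basal forebrain against 0.79, 0.86 and 1.02 in Con (difference 0.27, SE 0.09, adjusted p = 0.971 by limma). In cortex it read 1.08, 0.96 and 1.48 in DKO against 1.29, 1.35 and 1.35 in Con (difference -0.15, SE 0.13). Over both regions the 3 members of next smallest p after Rsad2 were all lower in DKO mice. Gbp3 averaged -0.64, -0.68 and -0.65 in DKO mice against -0.24, -0.29 and -0.25 in Con mice, a difference of -0.40 (SE 0.07, adjusted p = 0.135 by limma) that kept its sign in all 17 alternatives and passed in none. Ifit3 averaged 0.07, 0.12 and 0.25 in DKO and 0.60, 0.45 and 0.36 in Con (difference -0.32, SE 0.09, adjusted p = 0.387 by limma). Bst2 averaged -0.55, -0.46 and -0.50 in DKO and -0.32, -0.22 and -0.30 in Con (difference -0.22, SE 0.07, adjusted p = 0.417 by limma). Over both regions 22 of 33 members were lower and 11 higher, with a median of -0.04 against -0.02 over all genes. The mouse means did not overlap for 6 members (2 higher, Rsad2 and Lgals3bp, and 4 lower, Gbp3, Ifit3, Bst2 and Ifit2), against 16.7% of all genes.

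The genotype effect was also compared between the regions, and no member passed. The DKO minus Con difference of basal forebrain less the one of cortex, fitted over all 12 arrays, passed limma's test for 0 of 33 members and 0% of 26773 genes, with an unadjusted p under 0.05 for 4 members (12.1%) against 8.39% of all genes. It was below 0 for 24 members and above 0 for 9, with a median of -0.08 against 0.06 over all genes. The smallest p belonged to Ifi27 at -0.47 (SE 0.14), followed by Lgals3bp at -0.36 (SE 0.11), Xaf1 at -0.34 (SE 0.13) and Cmpk2 at 0.42 (SE 0.17), all with an adjusted p of 0.560 by limma. The largest value was 0.88 (SE 0.42, adjusted p = 0.560) for Trim30a, whose basal forebrain readings spread widely in Con, at -2.86, -2.27 and -3.60, and in DKO at -2.92, -2.42 and -2.21. It rests on 1 probe: both other Trim30a probes had a lower genotype difference in basal forebrain (-0.12 and 0.09) than in cortex (0.18 and 0.24), and the second Ifi27 probe had nearly the same in both (-0.24 and -0.17). The second Lgals3bp probe went against the first, with a higher genotype difference in basal forebrain (0) than in cortex (-0.61). Xaf1, a partner of apoptosis inhibitors, read -1.28, -1.18 and -1.19 in DKO basal forebrain against -0.98, -1.10 and -0.94 in Con. In cortex Xaf1 read -0.95, -1.04 and -1.10 in DKO against -1.19, -1.14 and -1.15 in Con. DKO mice lay below Con mice in basal forebrain and above them in cortex, without overlap, and the difference between the regions did not pass. In cortex the DKO array nearest to Con was that of mouse 3, on the Con slide. All basal forebrain arrays shared slide 1, while cortex arrays of DKO mice 1 and 2 and of Con lay on different slides. The comparison of the genotype effect between regions is therefore partly confounded with slide.

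The regions differed far more than the genotypes, and most interferon response genes were higher in basal forebrain than in cortex. In DKO mice 26 of 33 members were higher in basal forebrain and 7 lower, with a median difference of 0.40 against -0.04 over all genes. In Con mice 27 were higher and 6 lower, with a median of 0.44 against -0.09. In DKO mice 18 members passed limma's test, 15 of them higher in basal forebrain and 3 lower, where 39.8% of all genes passed and 19.2% passed as higher. In Con mice 19 passed, 16 higher and 3 lower, where 49.1% of all genes passed and 18.5% passed as higher. The 2 comparisons use different mice. Of the 33 members 19 were higher in basal forebrain in all 6 mice (57.6%, against 21.8% of all genes) and 3 were lower in all 6 (9.09%, against 27.1%). The 3 were Ifih1, Ifit2 and Stat2, and Stat2, at -0.22 (SE 0.09) in DKO and -0.21 (SE 0.09) in Con, did not pass. Its second probe stood at 0.14 in DKO and -0.09 in Con. In the Con mice region and slide cannot be told apart, since all Con basal forebrain arrays were on slide 1 and all Con cortex arrays on slide 2. With slide as a block 6 members passed in Con, and the genes called in all fell to 2891, against 12961 without the block. The slide term of that fit rests on the DKO cortex arrays alone, mouse 3 against mice 1 and 2. It cannot separate slide from region within Con. In DKO mice 1 and 2, whose arrays shared slide 1, 25 members were higher in basal forebrain in both mice (75.8%, against 38.3% of all genes) and 5 lower in both (15.2%, against 38.7%). The median over the members was 0.33 in DKO mouse 1 and 0.39 in DKO mouse 2, against 0.02 and -0.03 over all genes.

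The Oas family showed the clearest region difference. Oasl2, an Oas-like protein, read -0.68, -0.72 and -0.49 in DKO basal forebrain against -1.65, -1.53 and -1.73 in DKO cortex, and -0.56, -0.73 and -0.11 in Con basal forebrain against -1.61, -1.70 and -1.44 in Con cortex. The difference was 1.01 (SE 0.15, adjusted p = 0.000266 by limma) in DKO and 1.12 (SE 0.15, adjusted p = 0.000122) in Con. For Oas1a, whose values are given above, it was 0.84 (SE 0.14, adjusted p = 0.000676 by limma) in DKO, 1.79-fold, and 1.08 (SE 0.14, adjusted p = 0.000107) in Con, 2.11-fold. Its difference within each mouse was 0.78, 0.73 and 1.02 in DKO, and in Con the lowest was 1.04 and the median 1.09. Oas2 read -2.67, -2.77 and -2.35 in DKO basal forebrain against -3.68, -4.07 and -3.63 in DKO cortex, a difference of 1.20 (SE 0.21), and the Con difference was 1.36 (SE 0.21). In Con mice Oas1a and Oasl2 passed under all 18 alternatives. The fit with slide as a block is 1 of these, and it cannot separate slide from region within Con. In DKO mice both passed under 17 of 18 and not without the Xist-positive mice, where Oas1a differed by 0.56 (adjusted p = 0.0957 by limma) and Oasl2 by 0.73 (adjusted p = 0.105 by limma).

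Most other members were also higher in basal forebrain. Lgals3bp had the smallest p in both genotypes, at 0.57 (SE 0.08, adjusted p = 0.000174 by limma) in DKO and 0.93 (SE 0.08, adjusted p = 4.35e-06) in Con. Its second probe, well above background on 11 arrays, did not show this, at -0.01 in DKO and -0.61 in Con. Isg15 was higher in basal forebrain by 0.70 (SE 0.15) in DKO and 0.75 (SE 0.15) in Con, Usp18 by 0.62 (SE 0.18) and 0.64 (SE 0.18), and Mx2 by 0.74 (SE 0.19) and 0.79 (SE 0.19), all past the test. Gbp3, Ifit3, Irf9, Parp14 and Ifi35 also passed in both genotypes, with differences of 0.28 to 0.72. Ifit1, Mx1 and Trim30a passed as higher in DKO alone, and Irf7, Ddx58, Ifi47 and Ifitm3 in Con alone, but for none of them did the region difference differ between the genotypes past the test (smallest adjusted p = 0.560 by limma). Mx1 entered both region comparisons through basal forebrain alone, being well above background on 2 DKO and 1 Con cortex arrays, so its direction is partly set by the filter. Both other Trim30a probes were higher in basal forebrain in Con too (0.66 and 0.63, against 0.03 for the brightest) and in DKO (0.36 and 0.47). Ifit2 and Ifih1 went the opposite way, lower in basal forebrain. Ifit2, an RNA-binding relative of Ifit1, read -2.03, -2.27 and -2.12 in DKO basal forebrain against -1.70, -1.44 and -1.61 in DKO cortex, and -1.84, -2.21 and -2.03 in Con basal forebrain against -1.57, -1.47 and -1.58 in Con cortex. The difference was -0.56 (SE 0.13, adjusted p = 0.00445 by limma) in DKO and -0.49 (SE 0.13, adjusted p = 0.00789) in Con. Ifih1 read -1.96, -1.98 and -2.09 in DKO basal forebrain against -1.44, -1.41 and -1.46 in DKO cortex, and -1.85, -2.04 and -1.59 in Con basal forebrain against -1.46, -1.52 and -1.51 in Con cortex. The difference was -0.57 (SE 0.12, adjusted p = 0.00262 by limma) in DKO and -0.32 (SE 0.12, adjusted p = 0.0382) in Con. Ifi27 was lower in basal forebrain in DKO, by -0.29 (SE 0.10, adjusted p = 0.0359 by limma), against 0.18 (SE 0.10) in Con. The second Ifi27 probe, well above background on all 12 arrays, was lower in both genotypes, at -0.40 in DKO and -0.32 in Con. Cmpk2 was lower in Con, by -0.44 (SE 0.12, adjusted p = 0.0107 by limma), against -0.02 (SE 0.12) in DKO. Of their alternatives, 7 of 18 kept the Ifi27 call in DKO, 15 of 18 the Cmpk2 call in Con and 9 of 17 the Ifih1 call in Con. With slide as a block the Con value of Cmpk2 was 0.02.

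**Figure D4:**
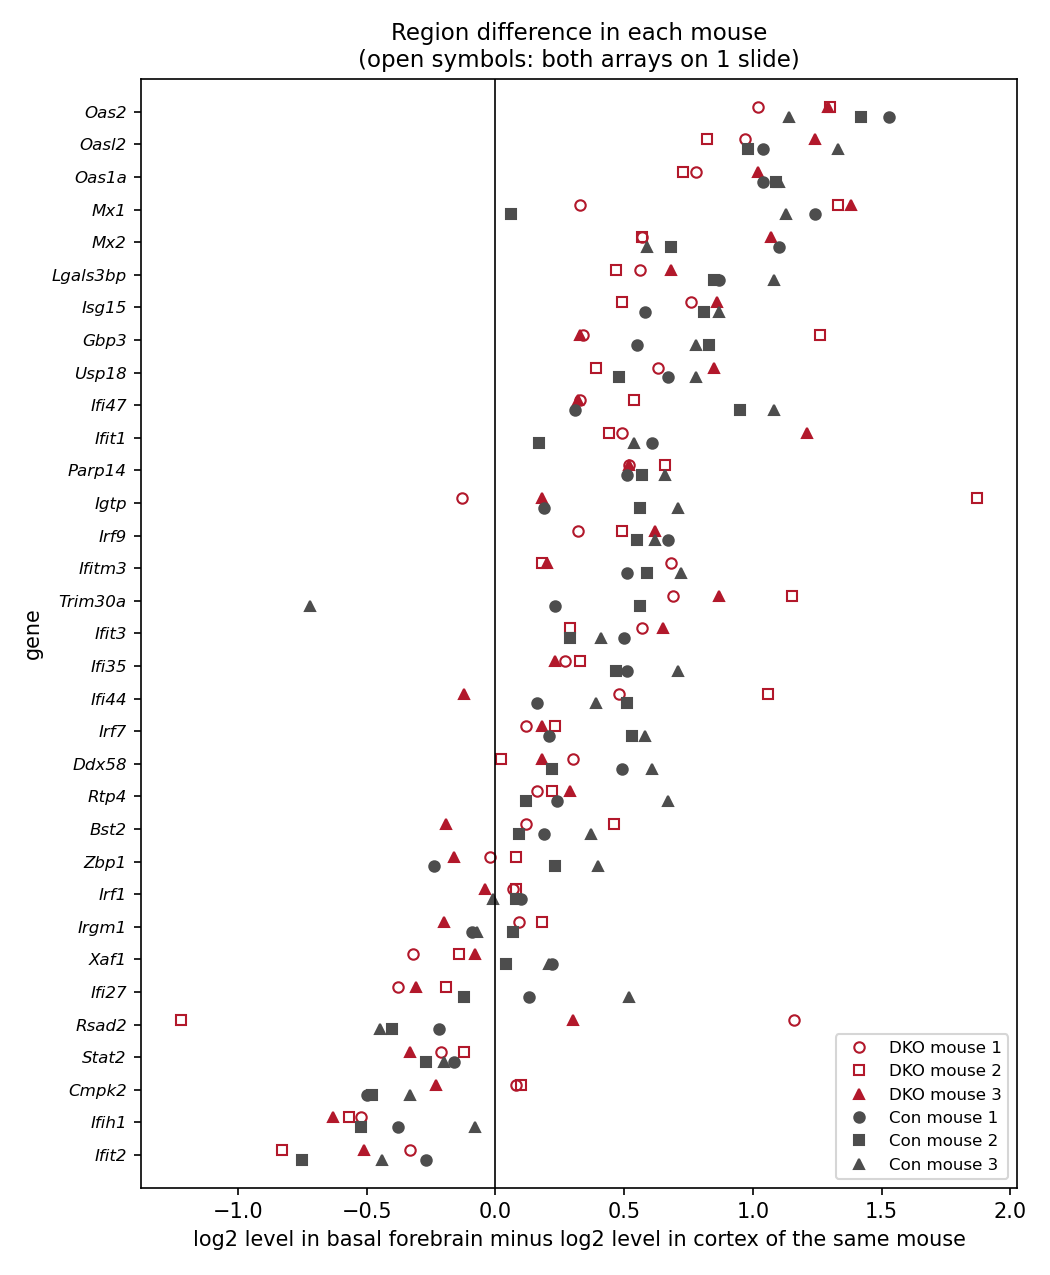
Log2 level in basal forebrain minus that in cortex of the same mouse (x axis) for each of the 33 genes (rows, sorted by their mean), in 3 DKO mice (red) and 3 Con mice (grey); open symbols are the 2 mice whose arrays shared a slide. In 19 genes all 6 mice lie right of 0, led by Oas2, Oasl2 and Oas1a, and in Stat2, Ifih1 and Ifit2 all 6 lie left of it.

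Cell type markers also differed between the dissected regions. Summed levels of 6 monocyte, macrophage and plasmacytoid dendritic cell markers were 61.4 to 71.4 in DKO basal forebrain against 50.4 to 55.8 in DKO cortex, and 48.6 to 71.1 in Con basal forebrain against 46.9 to 47.6 in Con cortex. Endothelial markers (6 genes) summed to 34.7 to 45.6 in DKO basal forebrain against 34 to 41.5 in DKO cortex, and to 31.4 to 35.1 against 26.4 to 30.9 in Con. Gene by gene, 4 were higher and 2 lower in basal forebrain in DKO (median 0.05), and 3 were higher and 3 lower in Con (median -0.07). Meningeal fibroblast markers (5 genes) summed to 8.4 to 13.6 in DKO basal forebrain against 5.03 to 8.62 in DKO cortex, and to 9.32 to 13.5 against 5.04 to 6.45 in Con. Choroid plexus markers (6 genes) went the other way, at 0.938 to 1.35 in DKO basal forebrain against 86.1 to 116 in DKO cortex, and at 1.02 to 2.49 against 52.8 to 101 in Con. Markers of T and NK cells (5 genes) summed to 14.7 to 17.4 in DKO basal forebrain against 26.2 to 31.5 in DKO cortex, and to 13.8 to 17.5 against 27.6 to 28.8 in Con. These sums weigh the brightest markers most, and the single T and NK genes were split. In DKO 2 were higher and 3 lower in basal forebrain (median -0.07), and in Con 3 were higher and 2 lower (median 0.06). The part of cell composition in the region difference was not tested.

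Within groups the members varied about as much as other genes. The median SD between the 3 mice was 0.16 for members against 0.14 for all genes in DKO basal forebrain, 0.19 against 0.16 in Con basal forebrain, 0.13 against 0.17 in DKO cortex and 0.12 against 0.09 in Con cortex. Some arrays stood apart from the rest. Con mouse 3 had the highest of the 6 basal forebrain readings for 20 of 33 members (60.6%), against 29.9% of all genes, and its median deviation from the region's mean was 0.19 over the members. The 20 included Irf9, Irf7, Isg15, Usp18, Ifih1 and Oasl2. In its cortex the same mouse was the highest for 8 of 32 members, against 19.3% of all genes. Con mouse 2 had the lowest of the 6 cortex readings for 11 of 32 members (34.4%, a larger share than over all genes), and DKO mouse 1 the lowest in basal forebrain for 10 of 33 (30.3%, against 14.5%). Without Con mouse 2 the median member difference between DKO and Con basal forebrain was -0.22.

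Upstream of the members, 18 interferon genes were on the array and 10 entered each regional genotype comparison. None passed in basal forebrain (6 higher, 4 lower) or in cortex (10 lower). These counts of direction are partly set by the filter, which lets a dim gene enter through the group where it is brighter. Ifna13 and Ifna7 entered in cortex through Con alone, and Ifna11 and Ifng in basal forebrain through DKO alone. The smallest p in basal forebrain was that of Ifna11 at 0.42 (SE 0.32, adjusted p = 0.971 by limma), followed by Ifng at 0.40 (SE 0.35). Ifna11 was well above background on 3 DKO arrays and 1 Con array there, and Ifng on 3 and 2. In cortex Ifna13 was well above background on no DKO array and on all 3 Con arrays, which makes it at least 1.49-fold lower in DKO (adjusted p = 0.261 by limma), and Ifna7 read -6.81, -6.33 and -5.20 in DKO against -5.22, -5.03 and -5.21 in Con. The DKO array level with Con for Ifna7 is the one on the Con slide. Of 6 receptor chains none passed in any genotype comparison. Ifnar1 differed by 0.49 (SE 0.28) in basal forebrain and Ifnar2 by -0.08 (SE 0.07), while Ifngr1 differed by -0.17 (SE 0.14) and Ifngr2 by -0.08 (SE 0.06) in cortex. Of 14 genes of JAK-STAT signalling and its inhibitors none passed, with 8 lower and 6 higher in basal forebrain and 5 lower and 9 higher in cortex. Jak1 and Tyk2 had the smallest p in basal forebrain, at -0.11 (SE 0.09) and -0.19 (SE 0.18). Socs3, an inhibitor of the receptor kinases, read -0.28, 0.04 and -0.20 in DKO cortex against -0.72, -0.77 and -0.40 in Con, a difference of 0.48 (SE 0.13, adjusted p = 0.261 by limma). Irf2, an antagonist of Irf1, read -0.51, -0.44 and 0.34 in DKO cortex against 0.49, 0.48 and 0.50 in Con, and the DKO array near Con is the one on the Con slide.

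Of 25 genes of nucleic acid sensing none passed, with 12 higher and 13 lower in basal forebrain and 12 higher and 12 lower in cortex. In basal forebrain Trim25, which activates RIG-I, differed by 0.27 (SE 0.10) and Tbk1, the kinase of Irf3, by -0.23 (SE 0.08), both with an adjusted p of 0.971 by limma. In cortex Tlr3 read -3.01, -2.84 and -2.13 in DKO against -2.04, -1.96 and -1.92 in Con, and Unc93b1 read -0.21, -0.43 and 0.26 in DKO against 0.35, 0.30 and 0.35 in Con, with DKO mouse 3 again nearest to Con. Of 84 further interferon-induced genes that entered in basal forebrain, 43 were higher and 41 lower in DKO, and 1 passed; of 81 in cortex 43 were higher, 38 lower and none passed. That gene was Ifi205, of the DNA-sensing Ifi200 family, whose members are so alike in sequence that the probe's target is uncertain. It read -8.75, -8.40 and -8.99 in DKO basal forebrain, not well above background on any array, against -6.03, -5.42 and -5.91 in Con, and was at least 1.77-fold lower (adjusted p = 0.0377 by limma). It entered through Con alone, so its direction is partly set by the filter. In cortex it was not well above background in either genotype. Over both regions it passed as lower too (adjusted p = 0.0147 by limma), again entering through Con basal forebrain alone. Its probe lies at chr1:175942245-175942304 and the Psen2 probe at chr1:182157610-182157669 (mm9), on the same chromosome. Its relative Ifi202b read -3.66, -3.11 and -2.99 in DKO basal forebrain against -4.27, -4.64 and -4.00 in Con, a difference of 1.05 (SE 0.25, adjusted p = 0.863 by limma), and differed by 0.97 (SE 0.25, adjusted p = 0.261) in cortex. Ly6a, an interferon-induced surface protein of endothelium and blood cells, read 2.57, 2.72 and 1.99 in DKO cortex against 1.81, 1.58 and 1.86 in Con, a difference of 0.68 (SE 0.18, adjusted p = 0.261 by limma).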

How the data were processed

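Total RNA of both regions from 6 mice was hybridised to 12 one-colour Agilent mouse arrays. Per the file headers, the authors' arrays were read with Agilent Feature Extraction 10.7.1.1, which gives a background-subtracted intensity per spot, and probe positions are in mm9. The authors' deposited log2 values, with a normalization not stated in the labels or headers, served as an alternative only, and 12 flag columns of that table were not used. Here the log2 intensity minus each array's 75th percentile was analysed. Spots of a probe were averaged, controls and 37 flagged probes were left out, and no spot was saturated. A gene entered a comparison when every array of 1 of its groups or more flagged its probe as well above background.

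Differences were fitted with limma 3.58.1 (lmFit, eBayes with trend) in R 4.3.3, with p adjusted by Benjamini-Hochberg over all genes. Genotypes were compared per region and on per-mouse means; regions and the interaction came from 1 fit of 12 arrays. The fits were tested on simulated data. Mice are the replicates, 3 per group, and this number limits precision. Replicate numbers name different mice in the 2 genotypes, as the mouse names in the labels show. Same-numbered arrays of the 2 genotypes correlated in their deviations at -0.49 to 0.45. The 2 regions of a mouse did so at -0.08 to 0.39, so these correlations cannot tell paired arrays from unpaired ones. The 2 regions of a mouse are paired by design. The main fits of region and interaction had no mouse term and did not use this pairing. A fit with the mouse as a block was an alternative.

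The members and lists were chosen with earlier results of these data known. Every array's value is given for the 4 members of smallest p and the 2 of largest difference per genotype comparison, the 3 of smallest p per direction for regions, the brightest and dimmest member probe, and the transcription factors; other values were added after they were seen. Of each pathway list, called genes and the 2 of smallest p are named. A fold against a group not well above background is a bound ("at least"): each low value was raised to the dimmest signal called well above background on its array. Symbols are those of the files, and promoters were matched by symbol. Some checks of the labels are not reported here.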

Additional observations from a re-analysis of the deposited data

How the results depend on the processing

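Over the alternatives tried (background correction, scaling, filter, probe choice, variance trend, blocks, left-out mice), members called between the genotypes stayed at 0 in basal forebrain, and the member median there was -0.22 to -0.02 when a mouse was left out (-0.22 without Con mouse 2). In cortex 0 were called, but 9 without DKO mouse 3 and 8 without the 2 Xist-positive mice, where 9726 and 7735 of all genes were called; in both cases every remaining DKO array is on the other slide than Con. A lone remaining array is assumed to vary like the others. Over both regions the count of 1 (Rsad2) became 0 under quantile normalization, the authors' values, no filter on dim probes, the most variable probe, no variance trend, without the Xist-positive mice and with the replicate block, and was 0 to 1 when a mouse was left out (0 without DKO mouse 1, DKO mouse 2, Con mouse 1 or Con mouse 3). The interaction median was -0.25 under median scaling, and 0 to 2 members passed when a mouse was left out (2 without DKO mouse 3, with 1579 of all genes). For basal forebrain against cortex in DKO the member median was 0.28 with normexp, 0.30 with quantile normalization or the authors' values and 0.11 with median scaling, which moved the median of all genes to -0.32. The count of 18 fell to 9 with median scaling, 11 without DKO mouse 3 and 5 without the Xist-positive mice (13013, 7170 and 3570 of all genes, 10253 in the main setting), and was 11 to 18 when a mouse was left out. In Con the median was 0.32 with median scaling and 0.56 with the most variable probe, and the count of 19 fell to 6 with slide as a block (2891 of all genes, against 12961). With the mouse as replicate block 19 members passed in DKO and 20 in Con. Lgals3bp reversed with the most variable probe, at -0.01 in DKO and -0.61 in Con, and Cmpk2 in Con with slide as a block (0.02). The causes were not tested.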
